A study of Mus musculus with 96 samples.

Results

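Mouse genes of the major histocompatibility complex (MHC) carry names that start with H2-. Of the 56941 genes in the count table, 42 have such a name once 3 genes whose names end in -ps are left out. They were chosen by name alone and sorted by name into 2 classical class I genes, 28 non-classical class I genes, 7 class II chain genes and 5 class II chaperone genes. They were measured in 96 bulk RNA libraries from 7 tissues of 2-month-old mice, in a study that set 4 reprogrammable strains, 4Fj, 4FsB, 4Fk and 4FsA, beside WT. The labels list 3 samples of each strain and of WT per tissue. The exceptions are the heart, with 2 WT samples, and the spleen, with 1 sample of 4Fj, 3 of 4FsA and 3 of WT. The labels name no transgene promoter, insertion site, inducing agent or dose, and do not say which tissues came from one animal. P-values therefore measure the spread between these samples, which may be partly technical. The columns of the count table name the tissue and no genotype, so the libraries of a tissue mix WT with the strains, and no strain is compared with WT here.

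Class I molecules pair a heavy chain, encoded by a gene such as H2-K1 or H2-D1, with beta-2-microglobulin and show peptides from inside the cell to CD8 T cells. Nearly all nucleated cells make them, at levels that rise with interferon and with the activator Nlrc5. Class II molecules pair an alpha chain with a beta chain, such as H2-Aa with H2-Ab1, and show peptides taken up from outside to CD4 T cells. They are made mainly by B cells, dendritic cells and macrophages under the activator Ciita, and also by gut epithelium.

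The promoters printed here are shown because they carry short elements long known in these classes and belong to members on which the results turn. They come from RefSeq on GRCm38.p6 and run from 250 bases before to 50 after the listed start of each gene, 5′ to 3′ on the strand of the gene. Of 41 member names, 30 had an entry. Capitals mark exact matches, on either strand, to 6 motifs. The kB core is GGGATTCC and the core of the interferon-stimulated response element (ISRE) is TTTCACTTC. Among class II elements the X2 box core is ATGATGC, the cAMP response element (CRE) is TGACGTCA and the Y box, an inverted CCAAT box, is ATTGG. The TATA box is TATAAA. These motifs were picked after the sequences had been read, and 0 matches in the printed promoters overlapped another. The classical class I genes are H2-K1 at chr17:34000298-34000597, minus strand, the first listed of its entries, and H2-D1 at chr17:35262844-35263143, plus strand. The tissue-restricted class I genes are H2-Q10 at chr17:35469839-35470138, plus strand, and H2-T3 at chr17:36190102-36190401, minus strand. The class II chain genes are H2-Aa at chr17:34287774-34288073, minus strand, and H2-Eb1 at chr17:34305617-34305916, plus strand.
H2-K1: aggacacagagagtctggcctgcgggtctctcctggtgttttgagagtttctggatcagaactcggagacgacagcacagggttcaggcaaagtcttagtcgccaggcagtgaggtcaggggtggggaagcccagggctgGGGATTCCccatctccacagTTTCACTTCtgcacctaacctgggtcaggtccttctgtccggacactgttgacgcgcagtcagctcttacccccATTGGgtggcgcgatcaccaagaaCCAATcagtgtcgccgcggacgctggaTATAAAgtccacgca
H2-D1: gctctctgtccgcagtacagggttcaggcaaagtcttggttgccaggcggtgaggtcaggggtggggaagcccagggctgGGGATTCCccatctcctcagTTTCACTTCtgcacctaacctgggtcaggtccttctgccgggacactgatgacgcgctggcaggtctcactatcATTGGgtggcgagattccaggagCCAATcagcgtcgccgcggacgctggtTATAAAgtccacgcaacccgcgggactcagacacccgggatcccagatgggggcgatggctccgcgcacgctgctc
H2-Q10: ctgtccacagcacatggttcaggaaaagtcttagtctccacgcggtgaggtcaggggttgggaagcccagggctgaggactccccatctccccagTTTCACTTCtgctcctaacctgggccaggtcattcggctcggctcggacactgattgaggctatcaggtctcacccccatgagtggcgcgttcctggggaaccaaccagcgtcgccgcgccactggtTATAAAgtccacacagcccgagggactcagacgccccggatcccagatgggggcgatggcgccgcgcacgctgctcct
H2-T3: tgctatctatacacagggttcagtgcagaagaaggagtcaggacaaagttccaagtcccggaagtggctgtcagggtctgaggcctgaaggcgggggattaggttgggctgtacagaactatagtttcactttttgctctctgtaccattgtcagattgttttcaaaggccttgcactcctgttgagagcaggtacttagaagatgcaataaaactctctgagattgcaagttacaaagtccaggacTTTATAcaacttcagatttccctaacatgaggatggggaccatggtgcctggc
H2-Aa: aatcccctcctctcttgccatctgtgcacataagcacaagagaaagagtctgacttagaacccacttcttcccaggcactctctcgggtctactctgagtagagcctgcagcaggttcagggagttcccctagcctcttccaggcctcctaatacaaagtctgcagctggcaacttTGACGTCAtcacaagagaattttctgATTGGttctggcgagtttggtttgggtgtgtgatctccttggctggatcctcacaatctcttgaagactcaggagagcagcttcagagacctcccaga
H2-Eb1: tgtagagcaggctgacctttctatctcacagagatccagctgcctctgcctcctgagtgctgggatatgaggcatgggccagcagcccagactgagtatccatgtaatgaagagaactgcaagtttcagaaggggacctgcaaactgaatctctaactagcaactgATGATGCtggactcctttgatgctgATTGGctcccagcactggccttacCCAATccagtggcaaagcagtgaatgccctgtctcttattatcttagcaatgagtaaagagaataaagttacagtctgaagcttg

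The H2-K1 and H2-D1 promoters both hold the kB core followed by the ISRE core. The kB core starts 110 bases before the listed start in H2-K1 and 170 bases before it in H2-D1. The listed starts are not placed alike, since the TATA box begins 35 bases after the start in H2-K1 and 26 before it in H2-D1. These distances therefore do not show a different spacing of the elements. H2-Q10 has the ISRE core 155 bases before its start and no exact kB core, and H2-T3 has neither in this window. Among 32851 promoters in the table, 1.06% held the kB core and 0.505% the ISRE core. In the members these were 2 of 2 classical class I promoters for each motif, and 2 and 5 of 20 non-classical ones. The 3 class II chain promoters and the 5 chaperone promoters had 0 matches to either. The X2 box core was in H2-Eb1, H2-DMb1, H2-DMb2 and H2-Ob of the class II genes, against 2.46% of all promoters, and the CRE stood in H2-Aa, against 1.79%. The Y box was in 3 of 3 class II chain promoters and 4 of 5 chaperone promoters, and in 2 of 2 classical and 17 of 20 non-classical class I promoters, against 37.4% of all promoters, so class I members share it. The X2 box core was also in the class I promoters of H2-T23 and H2-M10.3. The TATA box was in 2 of 2 classical and 12 of 20 non-classical class I promoters and in 0 of the class II ones, against 13.6%. These counts take matches on either strand. The match in H2-T3 is on the opposite strand, 3 bases before the listed start, so it is a match in letters only. A match describes letters and does not show that a factor binds there.

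Spleen held the most MHC RNA of any tissue, and brain the least. Levels are counts per 1e+06 counts of the library (CPM). All members together had a median of 17964 CPM in spleen, followed by liver at 4381, small intestine at 3613, kidney at 1041, heart at 589, skeletal muscle at 319.7 and brain at 148 CPM. Of the 42 members, 30 reached 1 CPM somewhere, and the tissue median was at least 1 CPM for 28 in some tissue. The tissue with the highest median was spleen for 22 of those 28, small intestine for 4 (H2-T3, H2-Q1, H2-Q2 and H2-Bl), liver for 1 (H2-Q10) and brain for 1 (H2-M5). A median of at least 1 CPM in all 7 tissues was reached by 12 members. H2-Pa and H2-M11 were at 0 in every library, and H2-Ea, the alpha chain that pairs with the H2-Eb1 product, had at most 2 counts.

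**Figure D1:**
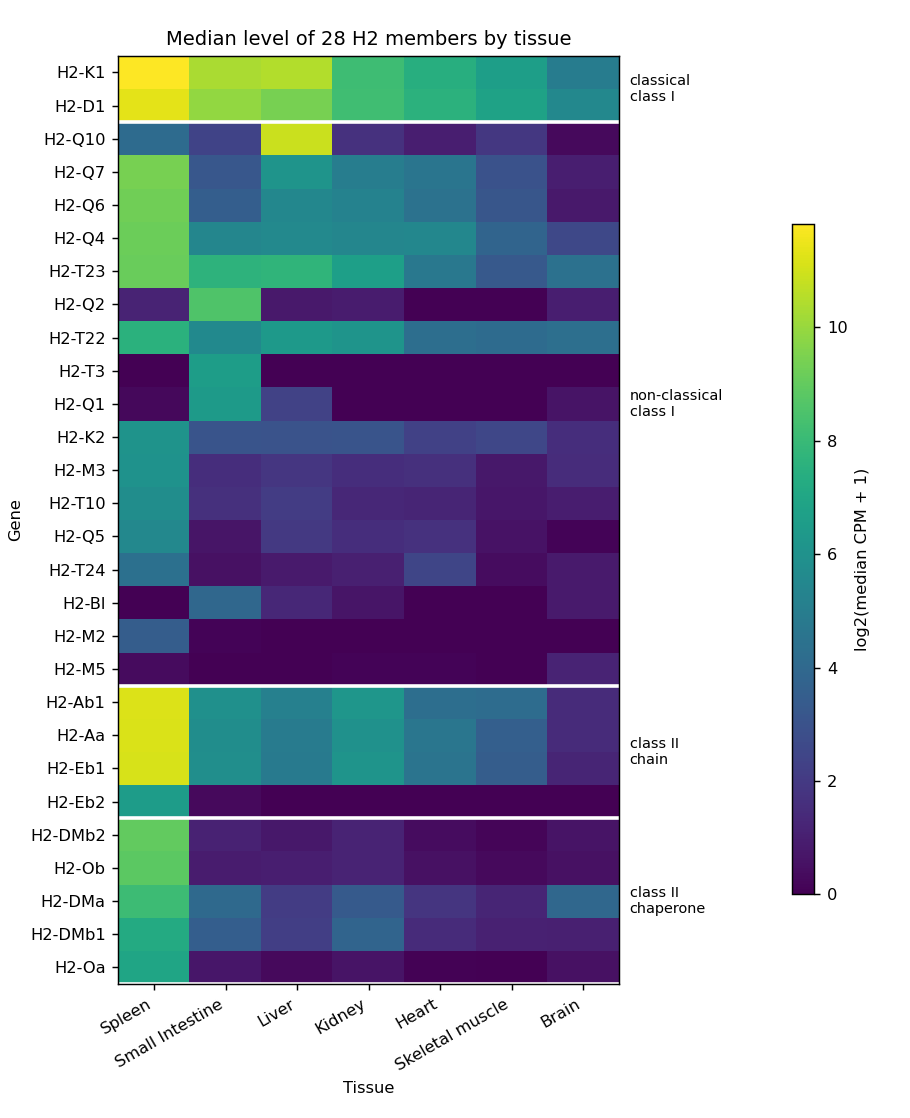
Median level of the 28 members with a median of 1 CPM or more in at least 1 tissue (rows, by class), in 7 tissues (columns), as log2(median CPM + 1). Most rows are brightest in spleen, while H2-Q10 is brightest in liver and H2-T3, H2-Q1, H2-Q2 and H2-Bl in small intestine.

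Totals ran from 6624474 to 17882603 estimated counts per library, so that 3 counts, the limit that a count of 0 allows, correspond to 0.168 to 0.453 CPM, for counting error only. Markers of each labelled tissue had their highest median there, 4 of 4 in each of the 7 tissues. In 2 small intestine libraries mitochondrially encoded genes took 78.8% and 62.3% of the counts. Levels of single members, class sums and tests in the small intestine were also computed without them. The total over all members was not. Class I copies are similar in sequence, and their counts were often fractional, as happens when a counter divides reads among features. Of the H2-K1 values above 0, 87.5% were not whole numbers, as were 92.7% for H2-T22 and 86.2% for H2-Q7, against 26.8% over all genes and 1.05% for H2-M3. How reads were divided among class I copies is therefore uncertain. In bulk tissue, fewer cells of a type and less RNA per cell cannot be told apart.

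H2-K1 and H2-D1, the classical heavy chains, were the most abundant class I genes in spleen. H2-K1 ran from 3460 to 4491 CPM in spleen, with a median of 3631 CPM, and H2-D1 from 2214 to 2849 CPM with a median of 2578 CPM. Both genes in every spleen library were above every library of the other tissues, the nearest being a small intestine library with 3389 CPM of H2-K1. Summed, the pair had a median of 6417 CPM in spleen (range 5892 to 6808, n = 7). Next came small intestine at 2216 CPM (154 to 4785, n = 15) and liver at 2104 CPM (1197 to 2857, n = 15), whose libraries overlapped widely. Kidney followed at 579 CPM (372 to 1013, n = 15) and heart at 365 CPM (239 to 771, n = 14), then skeletal muscle at 212 CPM (95.6 to 334, n = 15) and brain at 73.6 CPM (50.6 to 176, n = 15). Liver and kidney libraries did not overlap, while kidney, heart, skeletal muscle and brain each overlapped the next in this order. Without the 2 mitochondria-rich libraries, the small intestine median of the sum was 2285 CPM and its lowest value 900.3 CPM.

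The balance of the pair differed between tissues. The ratio of H2-K1 to H2-D1 counts had a median of 1.96 in liver (1.58 to 2.80) and 1.61 in spleen (1.25 to 2.03), but 0.973 in kidney (0.728 to 1.29) and 0.630 in brain (0.492 to 0.807). The ranges of liver and kidney did not overlap, nor did those of liver and brain.

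Non-classical class I genes encode class I-like chains with fewer alleles, and 17 of the 28 had a tissue median of at least 1 CPM. H2-T23 encodes Qa-1, the chain that shows leader peptides to CD94/NKG2 receptors. It ran from 431 to 641 CPM in spleen, with a median of 549.7 CPM. Medians elsewhere were 213 (liver), 202 (small intestine), 101 (kidney), 25.2 (heart), 19.9 (brain) and 8.81 CPM (skeletal muscle). Without its mitochondria-rich libraries the small intestine median was 247 CPM, above that of liver. For H2-T23 the brain stood above skeletal muscle, unlike the order of the classical pair, although the ranges of both tissues overlapped. H2-Q7 encodes Qa-2, a class I-like chain anchored by a lipid. It had 582 to 877 CPM in spleen (median 678) and at most 174 CPM in any library of another tissue. H2-Q4 ran from 435 to 837 CPM in spleen, against a highest value of 150 CPM outside it. H2-M3, which shows formylated peptides of bacteria and mitochondria, ran from 48.6 to 71.8 CPM in spleen and had medians between 0.684 CPM in skeletal muscle and 2.70 CPM in liver elsewhere. None of the other tissues' libraries reached the spleen range of these 3 genes. Other genes of the group had smaller gaps or lower levels. H2-Q6 ran from 536 to 1044 CPM in spleen, and H2-T22 from 168 to 237 CPM there, against 40.0 to 159 CPM in liver. H2-T24 had medians of 19.5 CPM in spleen and 4.61 CPM in heart, and at most 1.08 CPM in the remaining tissues. Of the 2 genes named H2-K2, ENSMUSG00000121503 had a spleen median of 65.9 CPM and ENSMUSG00000067203 one of 0.310 CPM.

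H2-Q10, a class I gene known in mouse liver for a secreted product, had the highest median CPM of the H2 genes in liver. In some liver libraries H2-K1 was above it, for example with 1459 against 555 CPM in the same library. H2-Q10 ran from 521 to 2737 CPM in liver (median 1879.6, n = 15), against at most 125 CPM in the 81 libraries of the other tissues. It took a median of 37.8% of all H2 counts in liver (17.6% to 50.7%), as against 0.104% in spleen. Per kilobase of exon its liver median was 432 CPM, close to the 474 CPM of H2-K1 and above the 259 CPM of H2-D1. Outside liver, the highest H2-Q10 value in spleen (125 CPM), in skeletal muscle (23.6 CPM) and in heart (3.55 CPM) fell in the library that also had the most Alb, the albumin gene of liver cells, in that tissue. Alb was at 3324, 2301 and 152 CPM in those 3 libraries, against tissue medians of 0.819 CPM in spleen, 0.978 CPM in skeletal muscle and 0.250 CPM in heart. In the other 3 tissues the library with the most H2-Q10 was not the one with the most Alb. There H2-Q10 reached 10.1 CPM in small intestine and 0.919 CPM in brain, with Alb at 0 CPM in both libraries, and 5.63 CPM in kidney, with Alb at 2.58 CPM, the lowest of the 15. The part of liver RNA in these values was not tested.

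H2-T3, H2-Q2, H2-Q1 and H2-Bl had their highest medians in the small intestine. H2-T3 encodes the TL antigen of intestinal epithelium, which binds CD8 alpha chains. In the small intestine it spanned 0.158 to 216 CPM around a median of 94.4 and was above 0 in 15 of 15 libraries. In the 81 other libraries it was above 0 in 9, at no more than 0.268 CPM, within the limit of a count of 0. Small intestine medians were 384 CPM for H2-Q2 (0.713 to 1204), 85.4 CPM for H2-Q1 (0 to 206) and 14.6 CPM for H2-Bl (0 to 236). In other tissues, H2-Q1 and H2-Bl were highest in the liver, with up to 57.7 and 31.3 CPM in a library. Per kilobase the small intestine medians were 432 CPM for H2-K1, 367 CPM for H2-D1, 176 CPM for H2-Q2, 70.0 CPM for H2-T23, 34.6 CPM for H2-T3 and 29.9 CPM for H2-Q1. H2-M5 was the member whose median was highest in brain, at 1.30 CPM (0.277 to 2.27), and 11 of the 28 non-classical genes had no tissue median of 1 CPM. Most of those are H2-M genes, and the H2-M10 family reached at most 8 counts in a library.

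H2-Aa, H2-Ab1 and H2-Eb1 made up nearly all class II chain RNA. H2-Aa ran from 1045 to 2569 CPM in spleen (median 2253), H2-Ab1 from 907 to 2988 CPM (median 2341) and H2-Eb1 from 957 to 2639 CPM (median 2228). Per kilobase the spleen medians were 1146 CPM for H2-Eb1, 912 CPM for H2-Ab1 and 593 CPM for H2-Aa. Summed over the 7 chain genes, spleen had a median of 6971 CPM (2943 to 8342). Kidney had a median of 205 CPM (50.9 to 832), small intestine 188 CPM (2.79 to 3516) and liver 98.6 CPM (31.4 to 714). Heart had 65.2 CPM (23.5 to 197), skeletal muscle 39.6 CPM (9.04 to 68.9) and brain 5.76 CPM (0.447 to 16.8). The highest small intestine library passed the lowest spleen library, and neighbours below spleen overlapped. Without its 2 mitochondria-rich libraries the small intestine median was 215 CPM and the lowest value 31.2 CPM. H2-Eb2, a second beta chain gene, had a median of 92.3 CPM in spleen and at most 36.2 CPM in a library of another tissue.

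Class II and class I did not share one order of tissues. The class II chain sum was a median 1.08 times the classical class I sum in spleen, 0.411 in kidney, 0.180 in heart, 0.163 in skeletal muscle, 0.121 in small intestine, 0.0706 in brain and 0.0445 in liver. Liver, close to small intestine in class I, stood last in this ratio.

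**Figure D2:**
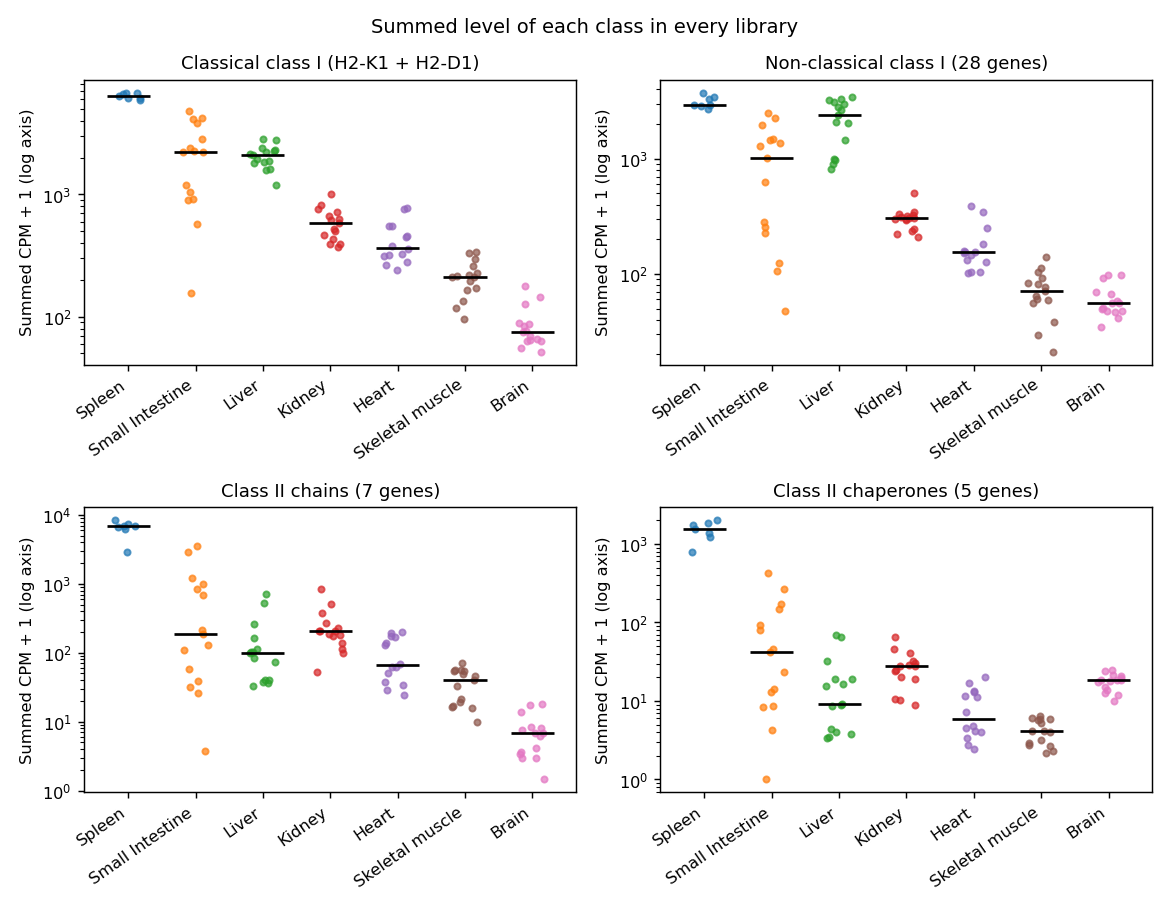
Summed CPM + 1 of the 4 classes (log axes) in each of the 96 libraries by tissue. Points are libraries and horizontal lines medians. Spleen has the highest median in each class, though for non-classical class I the liver libraries (818 to 3419 CPM) overlap those of spleen (2711 to 3747 CPM). The small intestine spreads most widely, and the brain's median chaperone sum lies above that of heart and skeletal muscle.

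The chaperones H2-DM and H2-O act on class II molecules inside the cell, where H2-DM helps exchange peptides and H2-O restrains it, mainly in B cells. In spleen H2-DMb2 had a median of 505 CPM (188 to 562), H2-Ob 461 CPM (294 to 686), H2-DMa 275 CPM (129 to 377), H2-DMb1 147 CPM (80.3 to 280) and H2-Oa 124 CPM (80.9 to 205). Every spleen library exceeded all others for H2-DMb2, H2-Ob and H2-Oa, while small intestine libraries reached 130 CPM of H2-DMa and 154 CPM of H2-DMb1. The 2 H2-DM beta genes traded places between tissues. The ratio of H2-DMb2 to H2-DMb1 was a median 3.21 in spleen (1.80 to 3.73), but 0.102 in kidney (0.0293 to 0.290) and 0.126 in heart (0 to 1.00). H2-DMa was the chaperone that stood out in brain, with 7.74 to 17.9 CPM and a median of 14.3 CPM. Its small intestine median was 15.5 CPM, or 23.4 CPM without the 2 mitochondria-rich libraries. The medians of 9.33 CPM in kidney, 3.25 CPM in liver and 2.53 CPM in heart were below that of brain. In brain H2-Aa, H2-Ab1 and H2-Eb1 had medians of 1.74, 1.79 and 1.33 CPM.

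Each tissue was set against the mean of the other 6 in 1 model of all 96 libraries, with edgeR's quasi-likelihood test and Benjamini-Hochberg adjustment over all genes tested. A gene is called at an adjusted p below 0.05. Of the 42 members, 28 passed the filter on low counts. Those that passed do so through the tissue where they are high, so the counts describe and are set beside the share of all 20100 tested genes called in the same direction. The median log2 difference of all tested genes ran from -0.31 in skeletal muscle to -0.03 in brain, and member values should be read against it.

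In spleen 23 of the 28 members were higher, where 29.3% of all genes were called higher, and 1 lower, where 26.7% were called lower. Both classical genes, 12 of 17 non-classical genes, 4 of 4 chains and 5 of 5 chaperones were higher. H2-K1 was higher by 3.04 ± 0.18 on the log2 scale (SE, adjusted p = 6.12e-29 by edgeR) and H2-Aa by 5.27 ± 0.34. The steepest differences were those of H2-DMb2 (7.89 ± 0.39), H2-Oa (7.88 ± 0.38) and H2-Ob (7.49 ± 0.42). H2-Bl was the member that was lower. B cell markers were higher in 6 of 6, with a median log2 difference of 8.74, dendritic cell markers in 6 of 6, T cell markers in 5 of 5 and macrophage markers in 7 of 8, and their part in the H2 levels was not tested.

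In small intestine 17 of 28 were higher (32.3% of all genes) and 2 lower (30% of all genes), namely H2-Q10 and H2-T24. Both classical genes, all 4 tested chains and all 5 chaperones were higher, with H2-K1 at 2.20 ± 0.15, H2-D1 at 1.66 ± 0.13 and H2-Ab1 at 2.66 ± 0.33. The class II chain sum spread from 2.79 to 3516 CPM between small intestine libraries. Its median of 188 CPM, or 215 CPM without the mitochondria-rich libraries, lay near the 205 CPM of kidney, where no chain was called. H2-Q2 stood 9.64 ± 0.38 and H2-Q1 8.50 ± 0.43 above the other tissues on the log2 scale, and H2-T3, at 0 throughout spleen, kidney and brain, was higher too. Left without the mitochondria-rich libraries, H2-K1 was at 2.37 and 18 members were higher. B cell markers were higher in 6 of 6 (median 2.72) and macrophage markers lower in 7 of 8 here.

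In liver 14 of 28 were higher, against 29.9% of all genes, and 0 lower, against 31% of all genes; edgeR gave 0 lower at an unadjusted p below 0.05 as well, and DESeq2 0. All 14 were class I genes, 2 of 2 classical and 12 of 17 non-classical, and 0 of the 9 tested class II genes were called. H2-Q10 was higher by 9.70 ± 0.38 (adjusted p = 1.17e-41), H2-Q1 by 5.44 ± 0.41, H2-K1 by 2.52 ± 0.15, H2-Q7 by 2.29 ± 0.26 and H2-D1 by 1.52 ± 0.13. H2-Aa differed by 0.27 ± 0.36 and H2-Eb1 by 0.30 ± 0.34, neither called by edgeR. Macrophage markers were higher in 7 of 8, while 0 of 6 B cell markers were called.

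In kidney 8 of 28 were lower (26.7% of all genes) and 0 higher (26.9%), with 2 higher at an unadjusted p below 0.05 in edgeR and 0 in DESeq2. The 8 included both classical genes, H2-K1 at -0.81 ± 0.18 and H2-D1 at -0.56 ± 0.15, and the chaperones H2-DMa and H2-Ob. None of the 4 tested chain genes was called, H2-Aa at 0.17 ± 0.36 and H2-Eb1 at 0.55 ± 0.33. In heart 14 were lower (30.4%) and 3 higher (27%). H2-K1 was at -0.75 ± 0.19, all 5 chaperones were lower, and the 3 that were higher were H2-T24 (1.88 ± 0.36), H2-Q6 (0.64 ± 0.28) and H2-Q4 (0.61 ± 0.18), all non-classical.

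In skeletal muscle 23 of 28 were lower (35.2%) and 0 higher (29.5%), with 0 higher at an unadjusted p below 0.05 in edgeR and 0 in DESeq2. H2-T23 was at -2.55 ± 0.28, H2-K1 at -1.47 ± 0.19 and H2-Aa at -1.74 ± 0.43. In brain 21 were lower (34%) and 1, H2-M5 at 2.55 ± 0.43, was higher (38.8%). H2-Ab1 was at -6.22 ± 0.61, H2-Q6 at -6.06 ± 0.45 and H2-K1 at -4.72 ± 0.24. H2-DMa, at -0.33 ± 0.32, was the tested class II gene that was not called in brain.

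Partner genes were taken from lists of 18 class I and 15 class II pathway genes. B2m, the light chain of class I, had medians of 1527 (spleen), 1439 (liver), 850.1 (small intestine) and 66.4 CPM (brain). It was higher in spleen by 1.88 ± 0.25, in liver by 2.66 ± 0.18 and in small intestine by 1.69 ± 0.19. Median CPM thus put spleen above liver, while the edgeR values, which use TMM scaling, put liver above spleen. The 2 measures need not order tissues alike, and the source of this difference was not tested. Of the class I pathway, 15 of 18 were higher in spleen (29.3% of all genes), 16 in small intestine (32.3%) and 16 in liver (29.9%). In brain 17 were lower (34% of all genes), and 17 in skeletal muscle (35.2%). Median Nlrc5 was 166 (spleen), 21.0 (liver) and 3.85 CPM (small intestine), and it was called higher in spleen (4.45 ± 0.30) and liver (2.35 ± 0.27) but not in small intestine (-0.24 ± 0.33). Liver and small intestine thus overlapped in H2-K1 and H2-D1 while Nlrc5 was called in liver; the difference in Nlrc5 between these 2 tissues was not tested. Of the class II pathway, 9 of 15 were higher and 3 lower in spleen, beside 29.3% and 26.7% of all genes. Ciita had a median of 176 CPM in spleen, 3.45 CPM in kidney, 2.24 CPM in small intestine and 0.184 CPM in brain. Cd74, the invariant chain that guards new class II molecules, had a median of 6857 CPM in spleen, and its ratio to the class II chain sum stayed between medians of 0.877 in brain and 1.20 in heart.

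Pou5f1 encodes Oct4, one of the reprogramming factors. It ran from 0 to 199 CPM in liver, 0 to 139 CPM in small intestine, 0 to 18.5 CPM in kidney and 0 to 13.01 CPM in heart. In each of these tissues, edgeR's quasi-likelihood test was fitted with log2(Pou5f1 CPM + 1) as the covariate. A slope is the log2 change of a gene per doubling of Pou5f1 CPM + 1. Members passed the filter on low counts in 23 cases in liver, 27 in small intestine, 21 in kidney and 19 in heart. Their median slopes were -0.16, -0.52, -0.11 and -0.43 in that order, beside -0.01, -0.01, -0.00 and -0.03 for all tested genes. Slopes were below 0 for 21 of 23, 27 of 27, 19 of 21 and 17 of 19 members. The genotype of each library is not known here, so genotype and Pou5f1 level cannot be told apart in a slope.

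**Figure D3:**
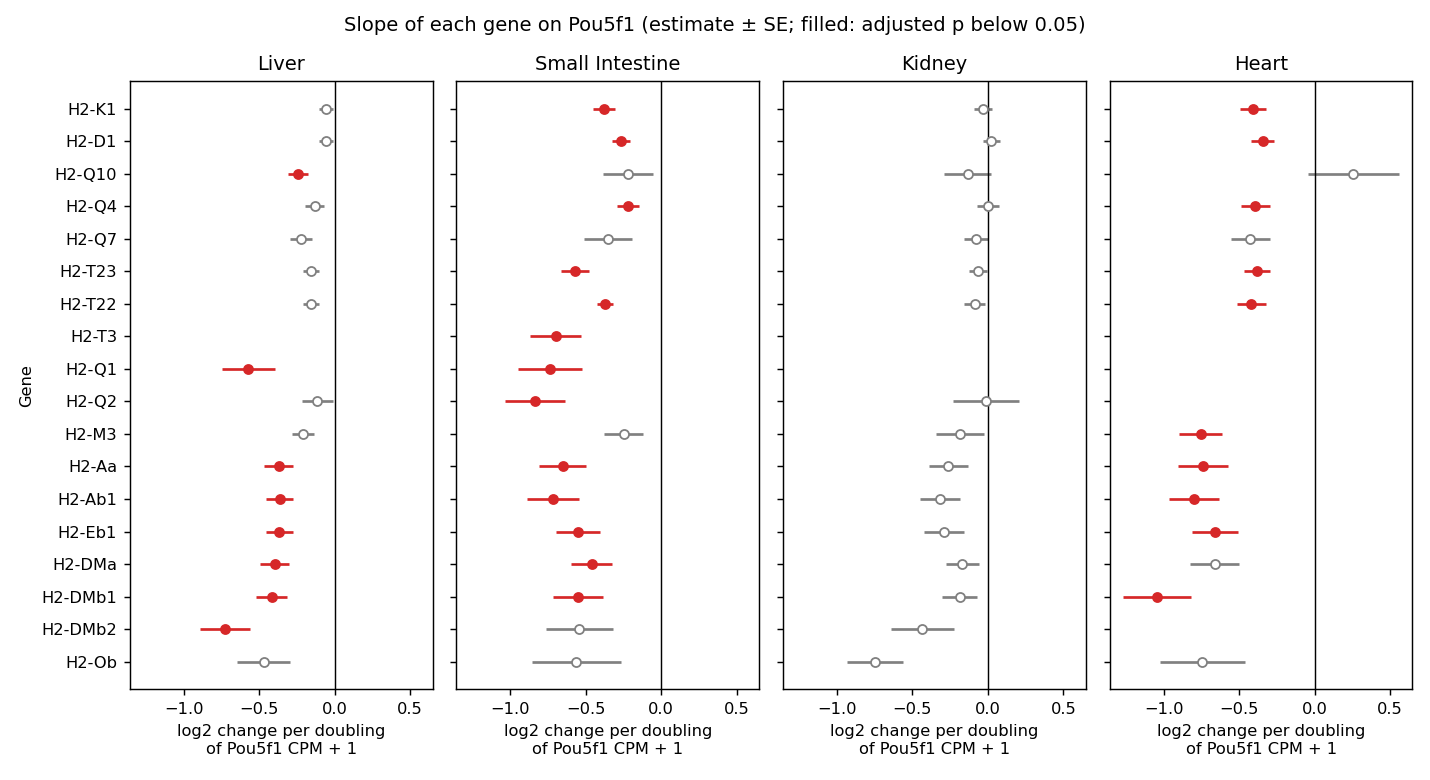
Slope of 18 members on Pou5f1 in 4 tissues, as log2 change per doubling of Pou5f1 CPM + 1, with bars of 1 SE; filled red points are called at an adjusted p below 0.05 and genes without a point were not tested. Slopes of H2-K1 and H2-D1 are called in small intestine and heart and lie near 0 in liver and kidney.

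In small intestine 15 of 27 members had a lower level with more Pou5f1, where 11.5% of all tested genes did, and 0 a higher one, where 15.4% did; 0 were higher at an unadjusted p below 0.05 in edgeR and 0 in DESeq2. The library with the most Pou5f1, 139 CPM, had 463 CPM of H2-K1, 0.158 CPM of H2-T3 and 0 CPM of H2-Q1. These are at the low end of the tissue, whose medians were 1269, 94.4 and 85.4 CPM. The 5 smallest p-values were those of H2-T22 (-0.37 ± 0.05, adjusted p = 1.50e-04), H2-T23 (-0.57 ± 0.10, adjusted p = 4.36e-04), H2-K1 (-0.38 ± 0.07), H2-D1 (-0.27 ± 0.06) and H2-Q2 (-0.84 ± 0.20), all by edgeR. H2-T3 fell by 0.70 ± 0.17, H2-Q1 by 0.74 ± 0.21, H2-Aa by 0.65 ± 0.16 and H2-Ab1 by 0.72 ± 0.17. Without the 2 mitochondria-rich libraries 16 members were lower. Within the 12 libraries below a gap in Pou5f1 that runs from 19.5 to 75.5 CPM, 0 of 27 were called by edgeR, although all 27 slopes were negative there. B2m (-0.47 ± 0.10), Ciita (-0.73 ± 0.23) and Cd74 (-0.68 ± 0.17) fell too, and 11 of 18 class I pathway genes were lower. Ptprc, which marks leukocytes, was lower with a slope of -0.51 ± 0.16, and 2 of 5 T cell markers were lower (median slope -0.48). The 6 B cell markers had slopes from -0.77 to -0.51, median -0.62, with 0 called by edgeR. Macrophage markers did not fall as a group, with 1 of 8 lower, a median slope of -0.01 and slopes up to 0.22. Of the dendritic cell markers 0 of 4 tested were called (median -0.10), and of the interferon gamma response genes 0 of 9 (median -0.15). The part of leukocytes was not tested. The 3 libraries above the gap, with the most Pou5f1, also had the lowest mitochondrial shares of the tissue, 4.32% to 4.71% beside a median of 12.2%, and with mitochondrially encoded genes removed 15 members were lower.

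In liver 8 of 23 members were lower, against 4.86% of all genes, and 0 higher, against 6.86%; at an unadjusted p below 0.05 edgeR had 1 higher, H2-Bl, and DESeq2 called 1. The 8 were H2-Aa (-0.37 ± 0.10), H2-Ab1 and H2-Eb1 (both -0.37 ± 0.09), H2-DMa (-0.40 ± 0.10), H2-DMb1 (-0.42 ± 0.11), H2-DMb2 (-0.73 ± 0.17), H2-Q1 (-0.57 ± 0.18) and H2-Q10 (-0.24 ± 0.07, adjusted p = 0.0285). H2-K1 and H2-D1 had slopes of -0.06 ± 0.04 and -0.06 ± 0.05, not called by edgeR (adjusted p = 0.403 and 0.455). H2-Q10 was at 1530.5 CPM and H2-K1 at 1337 CPM in the library with the most Pou5f1, 199 CPM. The next 2 libraries by Pou5f1, at 83.4 and 63.4 CPM, had 555 and 521 CPM of H2-Q10, the lowest of the 15, but 1459 and 1393 CPM of H2-K1, at or above its median of 1393 CPM. The count moved with the libraries used. It was 14 without the library with the most Pou5f1, 3 without the 2 libraries richest in Ptprc, and 0 both within the 9 libraries below and within the 6 above a gap from 0.494 to 5.71 CPM. Below the gap Pou5f1 was at most 0.494 CPM, near the limit of a count of 0 in liver (0.212 to 0.365 CPM). The 0 there therefore cannot show whether members vary with Pou5f1. Without the Ptprc-rich libraries 20 of 22 slopes were negative, with a median of -0.17, much as with all libraries. Below the gap 12 of 23 were negative (median -0.35), and above it 5 of 19 were, with a median of 0.15. Above the gap, the library with the most Pou5f1 had 27.6 CPM of H2-Aa, against at most 13.4 CPM in the others. No slope was called on either side, so a turn in direction is not shown. Ptprc (-0.31 ± 0.09), 5 of 6 B cell markers, 5 of 8 macrophage markers and 5 of 9 interferon gamma response genes were lower as well, as were Ciita (-0.66 ± 0.16) and Cd74 (-0.32 ± 0.09). Of the dendritic cell markers 1 of 3 tested was lower, and of the T cell markers 1 of 2 tested. Their part was not tested.

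In heart 10 of 19 members were lower, against 1.24% of all genes, and 0 higher, against 0.343%, with 0 higher at an unadjusted p below 0.05 in edgeR and 0 in DESeq2. The 5 smallest p-values were those of H2-M3 (-0.75 ± 0.14, adjusted p = 0.0255), H2-K1 (-0.41 ± 0.09, adjusted p = 0.0312), H2-Ab1 (-0.80 ± 0.17), H2-DMb1 (-1.04 ± 0.23) and H2-Aa (-0.74 ± 0.17), all by edgeR. H2-D1, H2-Q4, H2-T22, H2-T23 and H2-Eb1 were also lower. The heart library with the most Pou5f1, 13.01 CPM, had 8.07 CPM of H2-Aa, the lowest of the 14, and 122 CPM of H2-K1 beside a tissue median of 170 CPM. Without that library 1 member was called, and without the 2 libraries richest in Ptprc 0 were called, with 17 of 19 slopes still negative and H2-K1 at -0.38. Of the class I pathway, Nlrc5 (-0.72 ± 0.17), Irf1, Psmb8 and Psmb9 were lower. Ptprc had a slope of -0.45 ± 0.12, not called by edgeR (adjusted p = 0.0687), and 3 of 8 tested interferon gamma response genes were lower. Of the cell markers tested, 0 of 8 for macrophages (median slope -0.24), 0 of 4 for B cells (-1.09) and 0 of 3 for dendritic cells (-0.36) were called. The 1 tested T cell marker was lower (-1.33). The mitochondrial share moved with Pou5f1 too. It was 32.6%, 34.1%, 40.2%, 38.6% and 33.8% in the 5 libraries without Pou5f1 counts and 29.6% to 33.0% in the other 9, and with mitochondrially encoded genes removed 10 members were lower. The part of leukocytes, interferon response and RNA quality in the H2 slopes was not tested.

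In kidney 0 of 21 members were called in either direction, where 0.019% of all genes were called higher and 0% lower. At an unadjusted p below 0.05, 3 were lower and 0 higher in edgeR, and DESeq2 called 0. The 3 were H2-Ob (-0.75 ± 0.19), H2-Ab1 (-0.32 ± 0.13) and H2-Eb1 (-0.29 ± 0.13). H2-K1 had a slope of -0.03 ± 0.06 and H2-D1 of 0.02 ± 0.05. In the kidney library with the most Pou5f1, 18.5 CPM, H2-K1 was at 259 CPM and H2-Aa at 64.7 CPM, near the medians of 284 and 62.2 CPM.

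**Figure D4:**
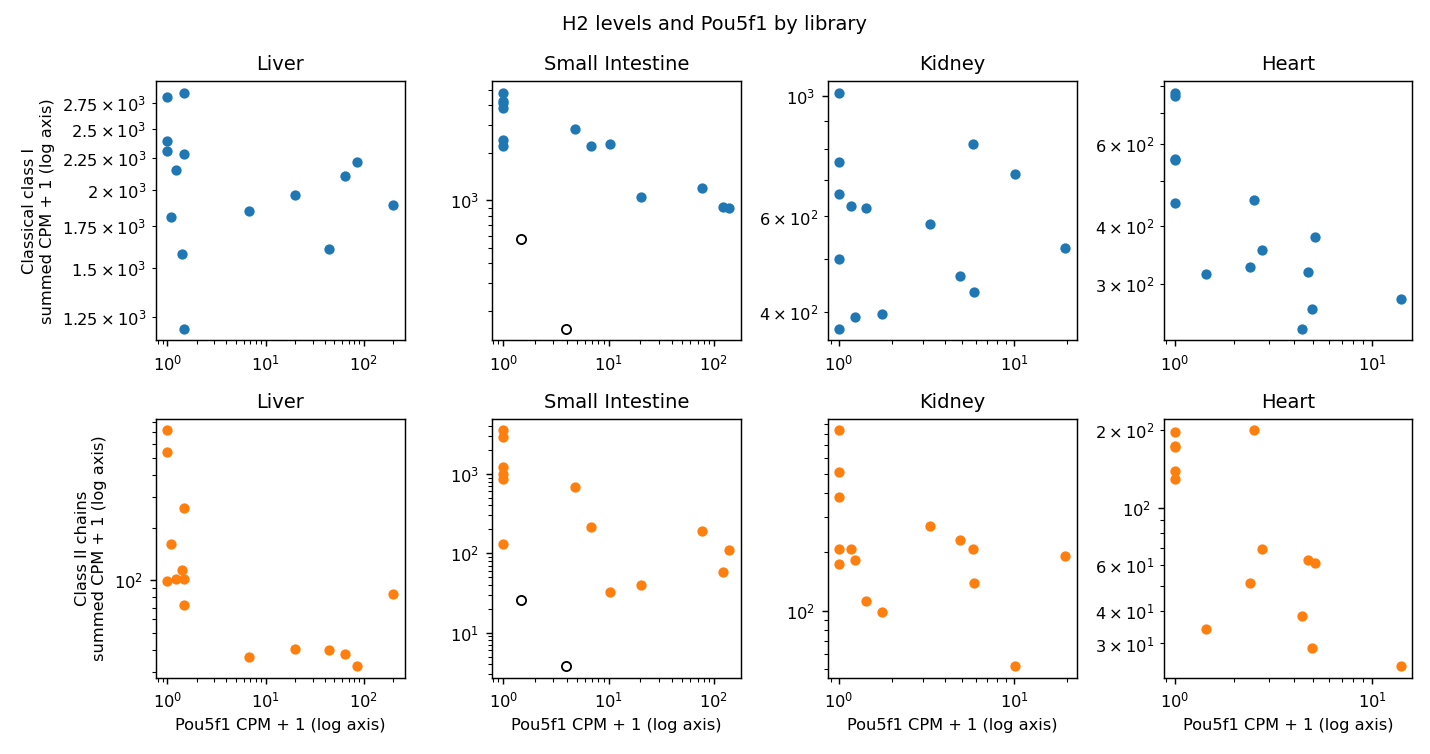
Summed CPM + 1 of the classical class I genes (top) and of the class II chains (bottom) against Pou5f1 CPM + 1 in each library of 4 tissues, on log axes; open circles are the 2 small intestine libraries with over 50% mitochondrial counts. Apart from the open circles, heart and small intestine libraries with more Pou5f1 tend to lie lower in both rows, and r was -0.013 for class I in kidney.

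Across libraries within a tissue, class sums were related to Pou5f1, to each other and to activator genes on the log2(CPM + 1) scale. In all 38 relations were computed, each with a permutation test and adjusted over the 38, and 20 had an adjusted p below 0.05 for Pearson's r. Where libraries fell into clusters on the x axis, r was computed within each cluster of at least 6 libraries.

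In heart the classical class I sum fell with Pou5f1 (r = -0.770, adjusted permutation p = 0.00335; rho = -0.749, adjusted permutation p = 0.00991, n = 14), and r was -0.772 without the 2 libraries farthest from the Pou5f1 median. Without a log it was -0.538 (adjusted permutation p = 0.0936), which ends the call. The class II chain sum gave r = -0.757 (adjusted permutation p = 0.00516; rho = -0.686, adjusted permutation p = 0.0210), and -0.648 without the 2 farthest. In kidney r was -0.013 for class I and -0.443 for class II, with adjusted permutation p = 0.964 and 0.144 over 15 libraries. Liver and small intestine fell into clusters of Pou5f1, and within them no r had an adjusted permutation p below 0.05. In liver, Pou5f1 below the gap was at most 0.494 CPM, near the limit of a count of 0, so r there cannot decide. In the 12 small intestine libraries below the gap class II gave r = -0.573 (adjusted permutation p = 0.0895) and rho = -0.661 (adjusted permutation p = 0.0464), and class I gave r = -0.361 (adjusted permutation p = 0.297). Both passed the threshold under 3 alternatives. For class I and class II, r was -0.714 and -0.794 with TMM scaling, -0.687 and -0.764 without mitochondrially encoded genes, and -0.769 and -0.782 without the 2 mitochondria-rich libraries, with adjusted permutation p between 0.00577 and 0.0219.

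The class II chain sum followed Ciita closely in most tissues. Pearson's r was 0.939 in heart (rho 0.956), 0.927 in liver (rho 0.939), 0.918 in small intestine (rho 0.908), 0.907 in kidney (rho 0.843) and 0.885 in the 12 muscle libraries below a gap in Ciita (rho 0.901). In these 5 tissues each rho had an adjusted permutation p of 0.000977 or less. In heart, liver and small intestine the permutation p was 1e-05, the smallest that 100000 permutations can give. After leaving out the 2 farthest libraries r stayed between 0.831 and 0.948 in these 5 tissues. In spleen r was 0.799 (exact permutation test, adjusted p = 0.0151, n = 7; rho 0.821, adjusted p = 0.0648) and 0.489 without the 2 farthest libraries, on which it rests. In brain, where Ciita did not exceed 0.555 CPM, r was -0.279 (adjusted permutation p = 0.330). Both Ciita and the class II genes are active in the same cells, so these values describe joint levels.

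The same sum followed Ptprc in 6 tissues, with r of 0.924 in small intestine, 0.881 in liver, 0.846 in kidney, 0.829 in brain, 0.788 in heart and 0.710 in skeletal muscle, each with an adjusted permutation p no higher than 0.00737. Its rho was 0.625 in brain (adjusted permutation p = 0.0303) and 0.723 to 0.925 in the other 5 tissues, and r without the 2 farthest libraries ran from 0.615 to 0.884. In spleen r with Ptprc was 0.620 (exact permutation test, adjusted p = 0.168). The classical class I sum followed Nlrc5 in brain (r = 0.830, rho 0.750), heart (r = 0.830, rho 0.811) and in 12 muscle libraries (r = 0.803, rho 0.748), with adjusted permutation p for r of 0.00334 or less and for rho of 0.0156 or less. Without the 2 farthest libraries r was 0.723, 0.667 and 0.667 in brain, heart and skeletal muscle. With TMM scaling, r in skeletal muscle was 0.508 (adjusted permutation p = 0.135), which ends that call. In 12 small intestine libraries r was 0.743 but 0.276 without the 2 farthest, on which it rests. In liver and kidney r with Nlrc5 was 0.439 and 0.434, with adjusted permutation p = 0.144 and 0.145. Class I and class II sums went together in brain (r = 0.874, rho 0.904) and small intestine (r = 0.810, rho 0.700), with adjusted permutation p = 1.90e-04 and 6.97e-04 for r and 1.52e-04 and 0.0120 for rho. Without the 2 farthest libraries r was 0.931 in brain and 0.673 in small intestine.

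**Figure D5:**
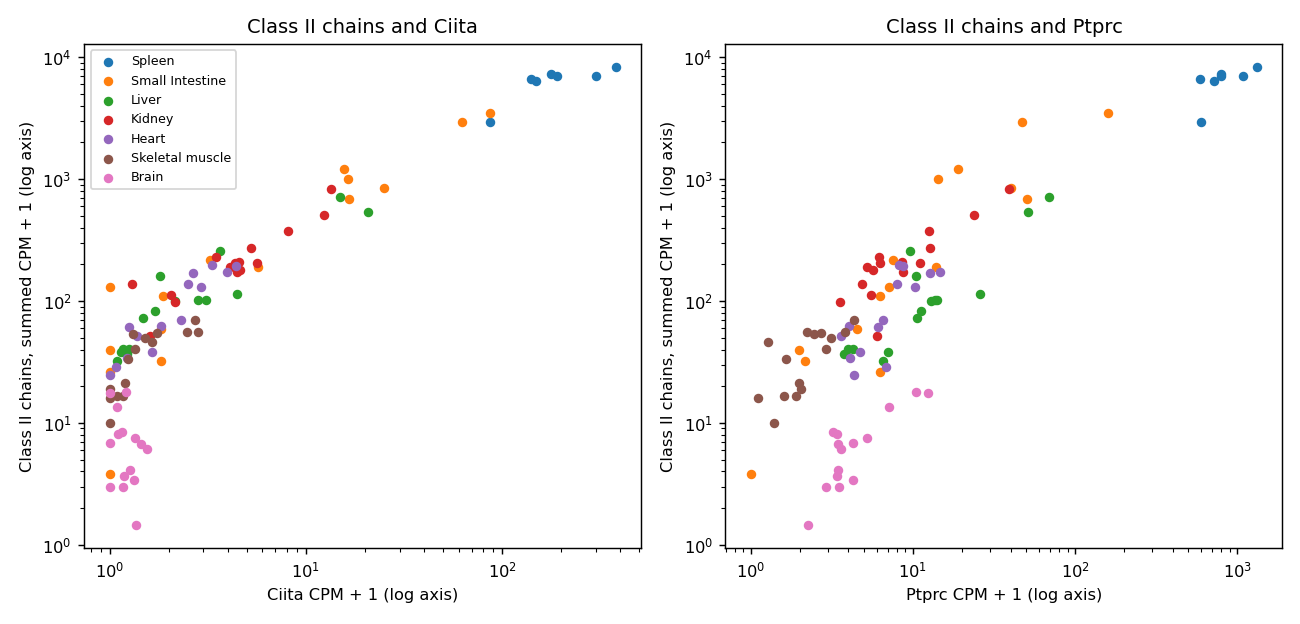
Summed CPM + 1 of the class II chains against Ciita (left) and Ptprc (right) in 96 libraries coloured by tissue, on log axes. Spleen libraries lie at the top right, brain libraries lie low with near-zero Ciita, and the other tissues climb with both genes.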

How the data were processed

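Bulk mouse RNA was measured. Per gene and library, the authors deposited estimated counts; the submitters' processing notes name GRCm39 and DESeq2. Aligner, counter, annotation and strand setting: not given in the sources used here. A deposited table of normalised values was not used.

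Members are genes named H2- without -ps; values are given in full for H2-K1, H2-D1, H2-Q10, H2-Q4, H2-Q7, H2-T23, H2-M3, H2-Aa, H2-Ab1, H2-Eb1, H2-DMa, H2-DMb1, H2-Oa and H2-Ob, and for up to 5 members per direction with the smallest p among those called on a Pou5f1 slope. Other members named beside these were chosen after their values were seen. Members and lists were chosen with earlier results of these data known.

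CPM was count over library total. Estimated counts were rounded and tested with edgeR 4.0.16 (R 4.3.3; TMM, filterByExpr, quasi-likelihood F test, Benjamini-Hochberg over all genes), by tissue or on log2(Pou5f1 CPM + 1). Slopes were fitted in liver, small intestine, kidney and heart. The SE given with an edgeR estimate is its absolute log2 value over the square root of F, not an SE reported by the fit. DESeq2 1.42.0, other scalings, no filter and left-out libraries were alternatives. Correlations used 100000 permutations (scipy 1.17.1), or exact ones under 10 libraries, with a pseudocount of 1 CPM. Clusters were split at gaps over 25% of the range with at least 3 libraries on each side. Exon lengths are from GENCODE M21 on GRCm38, and 41 of 42 members had one. The tests were tested on simulated data. Gene rows without a name, 310 in all, held at most 0.113% of a library and stayed in the totals.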

Additional observations from a re-analysis of the deposited data

Results flagged for a closer look

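Of 28 member or sum groups tested in spleen, the tissue with 4 to 10 libraries, 6 had a library standing apart from the rest by Dixon's criterion, and chance flags about 1 in 20 groups. The groups are not independent, as the class II chain sum contains H2-Aa and H2-Ab1, so 6 flags are not 6 separate results. One spleen library had the lowest value 4 times, with 188 CPM of H2-DMb2 (next lowest 408 CPM), 907 CPM of H2-Ab1 (2196 CPM), 1045 CPM of H2-Aa (2073 CPM) and a class II chain sum of 2943 CPM (6346 CPM). The same library had the most Pou5f1 of the 7, 14.3 CPM, the least Ciita, 86.1 CPM, and the least Cd74, 3258 CPM. Its classical class I sum was 5892 CPM, also the lowest, beside a spleen median of 6417 CPM, and its summed B cell markers, at 2687 CPM, were the second lowest. Their part in these values was not tested. H2-Q10 was highest at 125 CPM in a second spleen library (next 23.6 CPM), the one with 3324 CPM of Alb. H2-Q2 was highest at 8.69 CPM in another (next 2.999 CPM).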

How the results depend on the processing

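Of the values for single members, 1462 kept their direction and side of the threshold, 68 lost a call and 37 gained one. The sign changed in 38 values not called in the main fit and in 7 that were called, all 7 on the liver slope. Counts of called members changed by more than 1.5 times as follows. In spleen 2 were lower with DESeq2. In small intestine 1 was lower without a filter, without mitochondrially encoded genes and without the mitochondria-rich libraries. In kidney 3 were higher without a filter, and 2 without mitochondrially encoded genes or without those libraries. In skeletal muscle 2 were higher without a filter. On the liver slope 1 was higher without a filter or with DESeq2, and 13 were lower with DESeq2, 14 without the library with the most Pou5f1, 3 without the 2 libraries richest in Ptprc and 0 within either Pou5f1 cluster. On the small intestine slope 0 were lower within the 12 libraries below the gap. On the heart slope 1 was lower without the library with the most Pou5f1 and 0 without the 2 libraries richest in Ptprc. The settings on Ptprc and on clusters were chosen after seeing the data, and the cause of these changes was not tested beyond the fewer libraries used. Within the 6 liver libraries above the gap, slopes were above 0 for H2-DMa (0.15), H2-DMb1 (0.25), H2-Ab1 (0.16), H2-Aa (0.30), H2-Eb1 (0.14) and H2-Q10 (0.10). Within the 9 below it, where Pou5f1 was near the limit of a count of 0, the slope of H2-Q10 was 0.58. None of these slopes was called. Among the correlations, TMM scaling gave r of -0.714 and -0.794 for class I and class II with Pou5f1 in the 12 small intestine libraries, 0.691 for class I with class II in liver and 0.575 in skeletal muscle, which then passed the threshold. It gave 0.775 for class II with Ciita in spleen, 0.477 for class I with Nlrc5 in small intestine and 0.508 in skeletal muscle, which no longer passed. Without mitochondrially encoded genes, r was -0.687 and -0.764 for the small intestine classes with Pou5f1, now past the threshold, and 0.599 for class I with Nlrc5, no longer past it. Leaving out the mitochondria-rich libraries gave -0.769, -0.782 and 0.276 for the same relations. Without a log, class I with Pou5f1 in heart had r = -0.538, no longer past the threshold. DESeq2's size factors moved the median of all genes from -0.03 to 0.08 in brain and from -0.08 to -0.19 in small intestine on the log2 scale. No paired analysis was possible because the columns carry only a running number within each tissue, and the labels, which number samples within a genotype, do not say what it marks. Members under the limit of a count of 0 cannot be ranked at this depth.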
